A study of Mus musculus with 4 samples.

Results

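The immediate early genes examined here were Fos, Fosb, Jun, Junb, Jund, Egr1, Atf3, Ier2, Dusp1 and Zfp36, that is 10 of the 16408 nuclear genes listed in the UMI tables of 4 plates of mouse aortic cells. They were taken by symbol, and the question was how far their level varied from cell to cell and from plate to plate. The study sorted single cells of the aorta into 384-well plates, 1 plate per mouse, and sequenced the 3′ ends of their transcripts by SORT-seq, in which a barcode marks the well of each transcript and a unique identifier (UMI) marks the molecule. The mice were littermates on a C57BL/6 background, and all carried floxed Epas1, the gene of hypoxia-inducible factor HIF2α. The 2 mice labelled EC-KO also carried Cdh5-Cre-ERT2, a Cre recombinase expressed from an endothelial promoter and active after tamoxifen, and the 2 mice labelled EC-WT had no Cre. All 4 received 2 mg of tamoxifen a day by intraperitoneal injection for 5 days when they were 6 weeks old, and their aortas were taken 2 weeks after that. Each aorta was digested for 1 h at 37 °C with collagenases, hyaluronidase, DNase I and elastase, the adventitia was pulled off after 10 min, and live cells were gated as CD31+ CD45- before sorting.

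Immediate early genes are transcribed within minutes of a stimulus, without new protein synthesis, because their transcription factors already sit in the cell and are activated by kinases. Fos, Fosb, Jun, Junb, Jund and Atf3 encode leucine-zipper proteins that pair to form AP-1 and related factors, and Egr1 encodes a zinc-finger factor. Dusp1 and Zfp36 act as brakes, the first by removing phosphates from MAP kinases and the second by marking AU-rich transcripts for decay. Ier2 encodes a small nuclear protein of the same early response. Enzymatic dissociation of a tissue is known to induce these genes, and in endothelium they also respond to flow and to growth factors, and whether the levels below arose in the animal or during digestion was not tested.

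A well was kept as a cell when it held at least 1000 nuclear UMIs and at most 25% of its UMIs on mitochondrial genes, which left 441 of 1536 wells. EC-KO mouse 1 and 2 gave 157 and 98 cells, and EC-WT mouse 1 and 2 gave 114 and 72. The mice labelled EC-KO thus gave 255 cells and those labelled EC-WT 186. By its own quality filter the study counted more cells from EC-WT than from EC-KO mice, the other way round. The kept cells of a mouse held 566088 to 1088901 nuclear UMIs. Reads per UMI were 10.5 in EC-KO mouse 1, 18.6 in EC-KO mouse 2, 19.1 in EC-WT mouse 1 and 22.1 in EC-WT mouse 2, and EC-KO mouse 2 and EC-WT mouse 1 were read on the same flow cell. Pecam1, which encodes the CD31 used in the sort, had a UMI in 94.9%, 100%, 100% and 98.6% of cells in that order, whereas Ptprc, which encodes CD45, had 1 UMI in all. Epas1 was at 2930 and 3148 CPM (counts per 1000000 nuclear UMIs) in the mice labelled EC-KO and at 3324 and 2351 CPM in those labelled EC-WT. Epas1 was thus not lower in the mice labelled EC-KO. Whether these 3′ tags can report the deletion is not given in the sources used here. The study describes a check of the deletion in mice of these genotypes by PCR of endothelial RNA and by staining, without naming these 4 animals. Neither the Epas1 level nor the cell counts checks the labels, so the groups are named as labelled throughout and each direction between them rests on those labels. All 4 plates used the same 384 barcodes by design.

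In the GRCm38 genome (GENCODE M21), Fos lies at chr12:85473890-85477273 on the plus strand and Fosb at chr7:19302696-19310051 on the minus strand. Jun lies at chr4:95049034-95052222, Junb at chr8:84974484-84978718 and Ier2 at chr8:84661331-84662852, all on the minus strand, and Jund at chr8:70698949-70700616 on the plus strand. Atf3 lies at chr1:191170296-191218039, Zfp36 at chr7:28376784-28380253 and Dusp1 at chr17:26505590-26562128, on the minus strand. Junb shares positions with Prdx2 on the opposite strand, Jun with Junos, Jund with Gm11175, Atf3 with Gm24748 and Zfp36 with Gm44710, and the long Dusp1 model overlaps 2 models on its own strand and Ergic1 and Gm8225 on the other. Whether the counting used strand is not given in the sources used here, so reads of these overlapping genes may not be told apart.

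RefSeq start sites (GRCm38.p6) gave promoter windows for 8 of the 10 genes. The 80-base stretches below, 5′ to 3′ on the gene's own strand, belong to the 4 genes with such a window that varied together most over cells (Fos, Fosb, Junb and Zfp36) and to Dusp1, whose window held a whole cAMP response element. Capitals mark matches on either strand to the TATA box TATAAA, the short cAMP response element TGACG and the whole one TGACGTCA, which contains it. They also mark the CCAAT box CCAAT, the GC box GGGCGG, the Egr1 site GCGNGGGCG, which can overlap a GC box, and the CArG box bound by serum response factor. The Fos, Fosb and Zfp36 stretches end at the base before the start, the Junb stretch 31 bases and the Dusp1 stretch 121 bases before it.
Fos, chr12:85473810-85473889, plus strand: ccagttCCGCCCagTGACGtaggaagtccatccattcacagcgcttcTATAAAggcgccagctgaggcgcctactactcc
Fosb, chr7:19310046-19310125, minus strand: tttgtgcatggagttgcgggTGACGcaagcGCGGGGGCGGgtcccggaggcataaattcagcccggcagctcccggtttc
Junb, chr8:84978779-84978858, minus strand: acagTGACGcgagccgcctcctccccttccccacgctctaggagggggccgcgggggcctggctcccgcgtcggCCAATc
Zfp36, chr7:28379229-28379308, minus strand: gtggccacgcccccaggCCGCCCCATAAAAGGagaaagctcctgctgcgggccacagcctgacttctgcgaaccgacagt
Dusp1, chr17:26508593-26508672, minus strand: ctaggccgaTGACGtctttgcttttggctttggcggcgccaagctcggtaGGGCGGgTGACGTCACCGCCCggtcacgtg

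In the 250 bases before the start, TGACG was found in 5 of the 8 windows (Fos, Fosb, Junb, Atf3 and Dusp1) and in 17.8% of all 32817 RefSeq windows. GGGCGG was found in 6 of 8 and in 32.7% of all, and CCAAT in 2 of 8 (Jun and Junb) and in 33.8% of all. TATAAA was found only in the Fos window, against 12.4% of all, the CArG box only in that of Zfp36, against 1.47%, and TGACGTCA only in that of Dusp1, against 1.55%. The Egr1 site was found in the windows of Fosb and Zfp36, against 4.70% of all, and the AP-1 site TGANTCA in none of the 8, against 6.75% of all. These are letter matches in one window per gene. For Jund, whose window held no match to any of these motifs, the RefSeq start lay 1210 bases from the nearest GENCODE start, so that its window may not be the promoter in use.

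Together the 10 genes made up 0.113% to 0.186% of nuclear UMIs. Jun was the highest, at 393 ± 94.3 CPM (mean ± SD, n = 4 mice), and was read in 298 of the 441 cells. Jund, the AP-1 subunit that cells keep at a steady level, followed at 277 ± 36.6 CPM and was read in 308 cells. Jun was above Jund, and Jund above Dusp1, in 4 of 4 mice. Dusp1 (170 CPM), Junb (155 CPM), Ier2 (142 CPM), Zfp36 (124 CPM) and Egr1 (111 CPM) came next, and the difference between each neighbouring pair of these 5 was under the larger of their SDs. Fos had a mean of 49.9 CPM, above Atf3 at 14.98 CPM in 4 of 4 mice, and Fosb had 4.80 CPM. Fosb was not read in EC-KO mouse 2, where 0 UMIs allow up to 3.52 CPM, and had 7, 6 and 2 UMIs in EC-KO mouse 1, EC-WT mouse 1 and EC-WT mouse 2. Because 1 tag is counted per transcript end, CPM needs no correction for gene length.

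**Figure D1:**
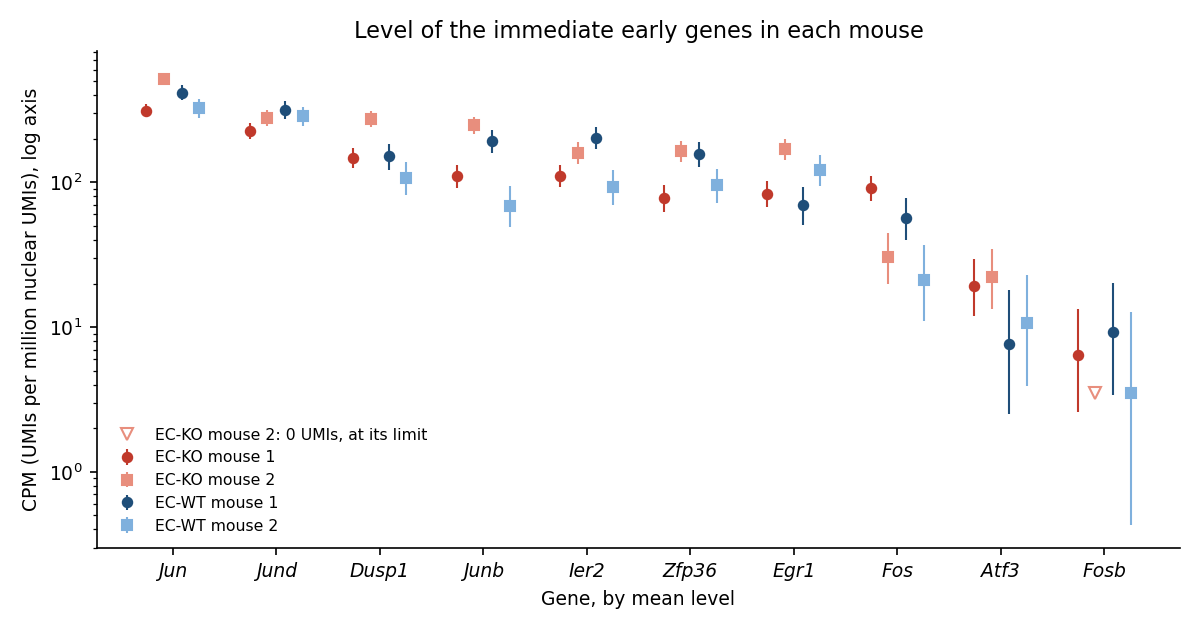
CPM of each gene (log axis) in each mouse, with exact Poisson 95% intervals that cover counting error only; the open triangle is the limit for 0 UMIs. Jun sits between 313 and 516 CPM in the 4 mice, and Fosb under 10 CPM in each.

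The plates differed in these genes, and by more than in the median gene. The summed level of the 10 genes was 1188 CPM in EC-KO mouse 1, 1863 CPM in EC-KO mouse 2, 1581 CPM in EC-WT mouse 1 and 1134 CPM in EC-WT mouse 2. Mice of the same label lay further apart than the group means. Between the 2 mice labelled EC-KO, the median absolute log2 ratio of the 9 genes that passed the filter on low counts was 0.83, against 0.28 over all 8385 genes tested. Between the 2 mice labelled EC-WT it was 0.75, against 0.36. For mouse 2 over mouse 1, Jund had log2 ratios of 0.24 in EC-KO and -0.17 in EC-WT, and Atf3 had 0.15 and 0.39.

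Fos and Junb had the widest fitted spread between mice of the same label among the 9 genes. Fos was at 90.9 and 30.5 CPM in the mice labelled EC-KO, with exact Poisson 95% intervals of 73.9 to 111 and 19.96 to 44.8 CPM. In those labelled EC-WT it was at 57.0 and 21.2 CPM, with intervals of 40.1 to 78.6 and 10.95 to 37.0 CPM. These intervals cover counting error only, and few cells held most of the Fos UMIs. Without wells G21 and H21, EC-KO mouse 1 had 23.2 CPM of Fos, below EC-KO mouse 2. The level of Junb was 110 and 248 CPM in the mice labelled EC-KO and 193 and 68.9 CPM in those labelled EC-WT. Its intervals did not overlap within a label either, at 91.4 to 132 and 216 to 284 CPM for EC-KO and at 160 to 229 and 49.0 to 94.2 CPM for EC-WT. The coefficient of biological variation that edgeR fitted within groups was 0.33 for Fos and 0.29 for Junb, and 1.84% and 4.05% of the genes tested had a higher one. For Jund it was 0.13, and 93.5% of genes had a higher one.

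Egr1 did not follow the same order of mice as Junb. It was at 83.6, 170 and 69.3 CPM in EC-KO mouse 1, EC-KO mouse 2 and EC-WT mouse 1, and at 121.9 CPM in EC-WT mouse 2. Ier2 was at 111, 160, 203 and 93.6 CPM in the same order. Zfp36 was at 78.1, 164, 157 and 95.4 CPM. Ier2 and Zfp36 were thus higher in EC-KO mouse 2 and EC-WT mouse 1 than in the other 2 mice, as were Jun, Junb and Dusp1.

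These 2 mice are the pair that shared a flow cell. Both lay above both other mice for 5 of the 9 genes tested, against 16.9% of all genes tested, and for none of the 9 did both lie below, against 15.4% of all. Their summed levels, 1863 and 1581 CPM, were above the other 2 as well. The flow cell and the animals cannot be told apart here, and the reads per UMI of the pair, 18.6 and 19.1, lay between those of the other 2 mice. Within that pair alone the summed level was 282 CPM higher in the mouse labelled EC-KO.

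Single cells ran over a far wider range than the sums of mice, and a sum over many cells is steadier in any case. The summed level of the 10 genes had a median of 1105 CPM per cell, quartiles of 640 and 1876 CPM, and a highest value of 28146 CPM. No UMI of any of the 10 genes was found in 23 cells, whose median was 1623 UMIs against 5558 over all kept cells. At the other end, 16 cells exceeded 5000 CPM, namely 2 and 7 in EC-KO mouse 1 and 2 and 5 and 2 in EC-WT mouse 1 and 2. Of the variance of the summed level over cells, 1.75% lay between mice, 9.31% was the share given by counting error, and 88.9% lay within mice beyond counting. The share between mice has no reference here for mice that do not differ, and it does not measure how far the plates lay apart. The shares rest on the extremes. Without the 10 highest cells they were 6.40%, 29.9% and 63.7%.

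**Figure D2:**
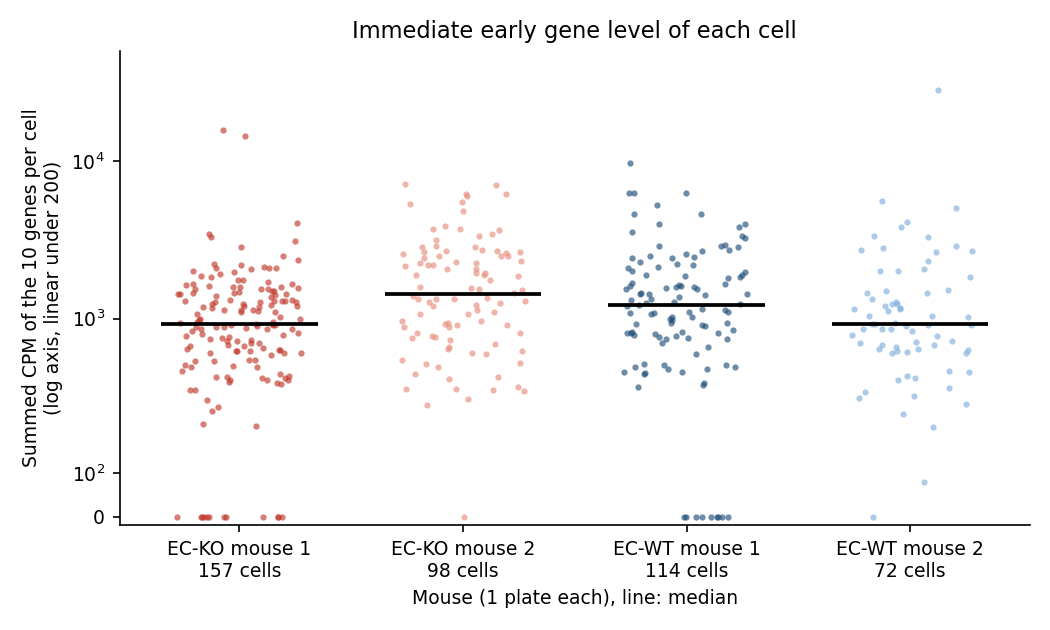
Summed CPM of the 10 genes in each kept cell (log axis, linear under 200 CPM), by mouse, with the median as a line. The medians run from 919 to 1428 CPM, while cells within each mouse run from 0 to at least 7135 CPM.

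The mice differed in the body of the distribution as well as in its tail. Median cells stood at 920, 1428, 1227 and 919 CPM in EC-KO mouse 1, EC-KO mouse 2, EC-WT mouse 1 and EC-WT mouse 2. After each cell was thinned to 1000 UMIs, which left out no cell, a cell held on average 1.17, 1.87, 1.57 and 1.68 UMIs of the 10 genes in that order. The share of thinned cells with none of the 10 was 43.3%, 24.5%, 29.8% and 34.7%. In unthinned cells it was 12 of 157, 1 of 98, 9 of 114 and 1 of 72. The place of EC-WT mouse 2 in this series depends on 1 cell, described next, which kept 28 UMIs of the 10 genes after thinning.

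The highest cells were read one by one. The highest, in well F9 of EC-WT mouse 2, had 34 UMIs of the 10 genes among only 1208, with 12 of Jun, 7 of Fos and 7 of Zfp36. The only cell with all 10 genes was in well H21 of EC-KO mouse 1, with 127 UMIs of them, 31 of Fos, 22 of Jun, 19 of Junb and 6 of Fosb. It held 37 UMIs of Pecam1 and 1 of Acta2, the smooth muscle actin. The cell of the neighbouring well G21 had 43 UMIs of Fos and 10 of Egr1, none of Ier2, Jund or Fosb, and 181 UMIs of Acta2 beside 2 of Pecam1. The highest cell of EC-KO mouse 2, in well I13, had no Fos UMI but 36 of Jun and 29 of Junb. Over all mice, 10 of the 10 highest cells had Jun and Egr1, 6 had Fos, and 8 had at least 10 Pecam1 UMIs.

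Among the 10 genes, Fos was the most concentrated of those with over 100 UMIs. It was read in 41 of 441 cells (9.30%), of which 23 had a single UMI, and its 10 highest cells held 74.7% of its 174 UMIs. The same share was 40.9% for Egr1, 31.9% for Junb, 31.0% for Zfp36, 23.9% for Dusp1, 20.4% for Ier2, 17.6% for Jun and 15.02% for Jund, against 11.4% for all nuclear UMIs in the 10 deepest cells. Atf3, the stress-induced partner of Jun proteins, had 51 UMIs in 30 cells, and Fosb had 15 UMIs in 6 cells. In EC-KO mouse 1, the cells of wells G21 and H21 together held 74.7% of its 99 Fos UMIs. Its Fos level of 90.9 CPM became 23.2 CPM without them, next to 30.5, 57.0 and 21.2 CPM in EC-KO mouse 2, EC-WT mouse 1 and EC-WT mouse 2.

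**Figure D3:**
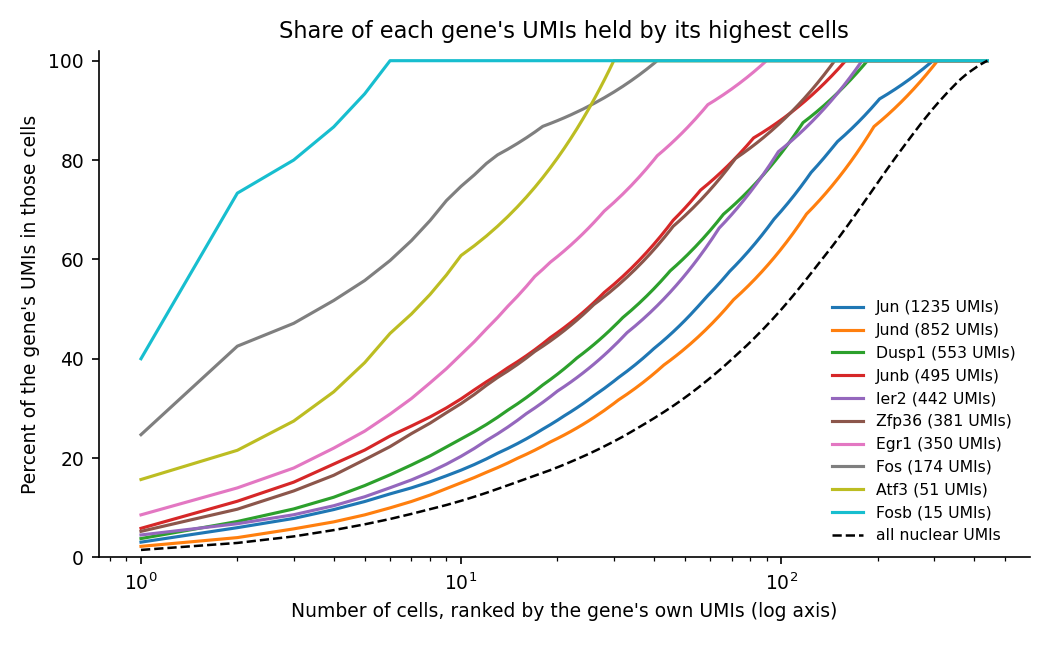
Cumulative percent of each gene's UMIs (vertical) held by its highest cells, ranked by the gene's own UMIs (log axis, 441 cells of 4 mice), with all nuclear UMIs as a dashed line. Fos reaches 74.7% with 10 cells, where Jund reaches 15.02%.

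A chi-square over its degrees of freedom, with each cell's expected count set by its depth, is 1 when a gene varies over cells by counting alone. Its median over all genes with at least 10 UMIs was 1.36 to 1.49 in the 4 mice. It lay between 3.75 and 34.6 for Fos in the 4 mice, above 96.3% to 99.9% of genes with at least 10 UMIs. Jun had 2.68 to 8.46, Egr1 2.76 to 6.66, Junb 3.35 to 5.44 and Zfp36 2.62 to 7.65, each above at least 94.1% of genes. Jund had 1.74 to 3.07, above 78.9% to 94.5% of genes. Its median over mice, 2.29, was the lowest of the 8 genes measured in all 4, but Ier2 and Atf3 were lower in EC-KO mouse 2 and Dusp1 in EC-WT mouse 1. This measure grows with the level of a gene, so the ranks are not corrected for that.

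With every cell thinned to 1000 UMIs, the spread of several of these genes came close to that of other genes. The variance over the mean of the thinned UMIs had a median of 1.04 to 1.12 in the 4 mice over genes with a mean of at least 0.05 UMIs. Fos passed that floor in 2 mice, with 4.57 and 5.26, and Egr1 in 3, with 1.56 to 2.46. Zfp36 had 1.41 to 3.07, Jun 1.19 to 3.68 and Junb 0.99 to 2.47 over the 4 mice. Junb in EC-KO mouse 2 was above 43.6% of genes, and Jun in EC-KO mouse 1 above 70.5%. Jund had 0.94 to 1.304, Ier2 0.99 to 1.31 and Dusp1 1.19 to 1.46. For so few UMIs the cells that set the spread also decide whether a gene passes the floor. Where they did not pass, Fos had 1 in EC-KO mouse 2 and 2.58 in EC-WT mouse 1, and Egr1 had 0.96 in EC-WT mouse 1.

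The genes varied together in part of the cells. Within mice, the Pearson correlation of log2(CPM + 100) over cells was positive in 4 of 4 mice for 23 of the 36 pairs of genes that could be measured in all 4. Over all 45 pairs its median was 0.15, next to 0.0048 to 0.010 in each mouse for pairs of all genes between 14.98 and 393 CPM, the means of Atf3 and Jun. Most genes in that range were sparser than most of the 10, and Fosb lay below it, so this is not a comparison at equal level. The highest were Fos with Fosb (0.39, in 3 mice), Fos with Egr1 (0.35), Junb with Egr1 (0.35), Fos with Junb (0.34) and Fos with Zfp36 (0.34). Jund had the lowest mean over its 9 pairs, 0.063, from -0.027 with Zfp36 to 0.12 with Fos and 0.18 with Fosb. Cells of a mouse share a library and differ in depth, and most pairs are sparse, so these correlations are given as a description.

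Much of the pattern came from few cells. Without the highest cell of each mouse, an alternative chosen after seeing the data, the median over pairs was 0.071, and 15 of the 36 pairs were positive in 4 of 4 mice. Junb with Egr1 was then at 0.28, Fos with Egr1 at 0.28, Junb with Ier2 at 0.27, Egr1 with Ier2 at 0.23 and Egr1 with Zfp36 at 0.22, each still positive in 4 of 4 mice. Fos with Zfp36 was at 0.19 and positive in 4 of 4. Fos with Junb was at 0.19 and positive in 3 of 4, and Fos with Fosb was positive in 1 of 3 mice. With every cell thinned to 1000 UMIs, and the highest cells kept, the median over pairs was 0.030. Fos with Junb was then at 0.37, Fos with Zfp36 at 0.32 and Junb with Zfp36 at 0.42, against 0.34, 0.34 and 0.31 unthinned, whereas Fos with Egr1 was at 0.18, Junb with Egr1 at 0.19 and Fos with Fosb, in 1 mouse, at -0.016.

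**Figure D4:**
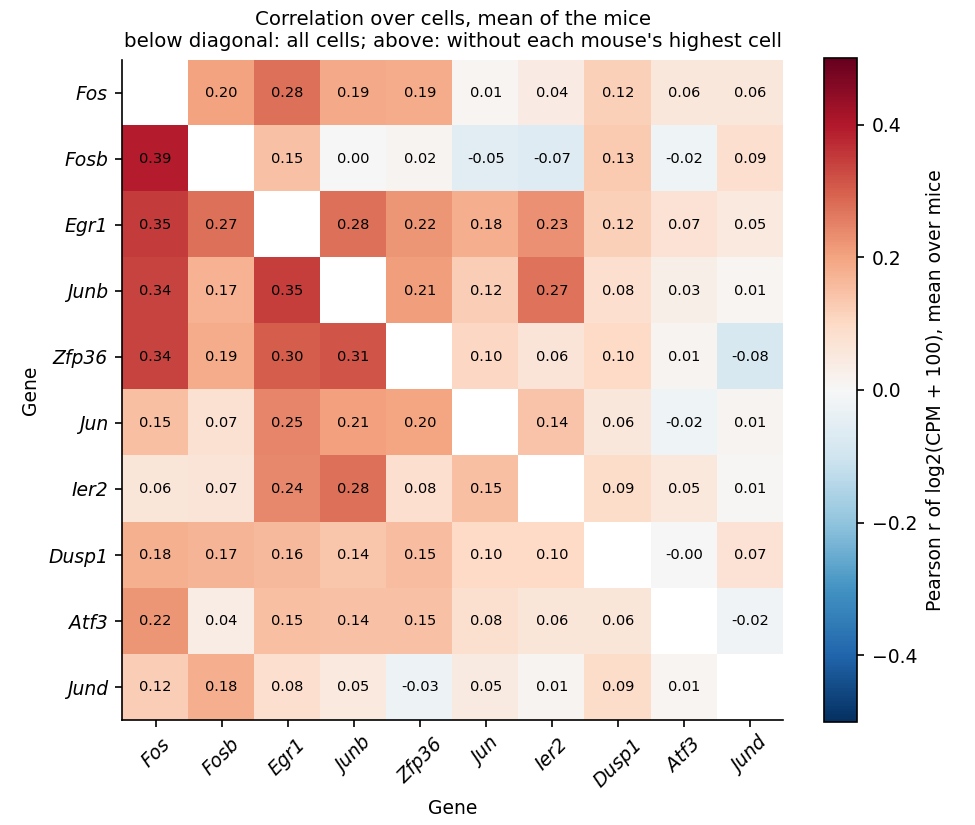
Mean over mice of the Pearson correlation over cells of log2(CPM + 100) for each pair of genes, with all cells below the diagonal and without each mouse's highest cell above it. Fos, Egr1, Junb and Zfp36 hold the darkest cells below the diagonal, up to 0.39 with Fosb, and the pairs of Jund run from -0.027 to 0.18.

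Cells with a Fos UMI were compared with the other cells of the same mouse for the other 9 genes. Their summed level was higher in the Fos-positive cells in 4 of 4 mice, by a ratio of 1.32 to 2.26. Junb was higher in 4 of 4 mice by 1.84 to 5.19, Egr1 by 2.76 to 6.47 and Zfp36 by 1.25 to 5.90. Jund was higher in 2 of 4 mice, with ratios of 0.53 to 1.58. Without the highest cell of each mouse the ratio for the 9 genes was 1.42 to 1.46, and Junb, Egr1 and Zfp36 were again higher in 4 of 4 mice. A deeper cell is more likely to show a gene at all. Fos-positive cells were deeper in 3 mice, with medians of 7135 against 5385 UMIs in EC-KO mouse 1, 8092 against 7250 in EC-KO mouse 2 and 6210 against 3692 in EC-WT mouse 1. They were shallower in EC-WT mouse 2, at 4731 against 5753 UMIs. Markers of cell type moved with the split too. The median cell with Fos had 556, 1196, 214 and 313.9 CPM of the 11 smooth muscle genes in EC-KO mouse 1, EC-KO mouse 2, EC-WT mouse 1 and EC-WT mouse 2, against 344, 865, 0 and 269 CPM without Fos. It had 9959, 13798, 12413 and 9559 CPM of 14 endothelial markers, against 10720, 14023, 13703 and 12848 CPM. On these medians smooth muscle markers were thus higher and endothelial markers lower with Fos in 4 of 4 mice. The smooth muscle medians stand for few UMIs a cell, and only 14, 11, 10 and 6 cells had Fos. The part of these markers in the ratios was not tested.

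By a rule that took the 10 genes outside the 10 with the highest mean correlation to the summed level, out of 1481 genes with at least 100 CPM in every mouse, the genes most alike over cells included Klf2 (0.27), Wdr92 (0.23), Ppp1r15a (0.23), Id1 (0.21), Slc38a2 (0.20), Klf4 (0.19), Rps29 (0.17), Dnajc3 (0.17) and Rpl11 (0.17). The median of the 1481 genes was 0.0019. Klf2 and Klf4 encode flow-responsive factors of endothelium that are themselves immediate early genes, and Ppp1r15a encodes the stress-induced subunit that restores translation. Klf2 lay at 714, 1497, 978 and 556 CPM in EC-KO mouse 1, EC-KO mouse 2, EC-WT mouse 1 and EC-WT mouse 2, with the pair on the same flow cell again higher than the other 2 mice. Summed over 36 further immediate early genes, the correlation with the 10 was 0.32 to 0.54 in the 4 mice. For 16 heat shock genes, which respond to protein damage, it was -0.077 to 0.26. For 22 kinases and factors upstream of the 10 genes it was -0.27 to 0.11.

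The summed level over cells was also set beside depth, position on the plate and markers of other cell types. Its Pearson correlation with log2 UMIs per cell was -0.31 to 0.18 in the 4 mice, with the mitochondrial share -0.15 to 0.15 and with ERCC spike-in UMIs -0.12 to 0.10. With plate row it was -0.050 to 0.30, highest in EC-WT mouse 2, and with plate column -0.071 to 0.076. With the summed smooth muscle markers it was -0.073 to 0.18 and with fibroblast markers -0.13 to 0.19, the latter highest in EC-KO mouse 2, where Spearman's rho was 0.28. Each of these Pearson correlations took both signs over the mice, whereas Spearman's rho with plate row was positive in 4 of 4, at 0.0072 to 0.28. Cells with 1000 to 2000, 2000 to 4000, 4000 to 8000 and over 8000 UMIs had medians of 1215, 1112, 1110 and 926 CPM. These medians pool the 4 mice, and no mouse alone showed a fall at every step. In the same order EC-KO mouse 2 had 2488, 1087, 1757 and 1370 CPM. EC-WT mouse 1 had 1050, 1341, 1594 and 831 CPM. The left and right sides of the plate did differ in one direction. Cells in plate columns 13 to 24 had a higher summed level than cells in columns 1 to 12 in 4 of 4 mice, at 1439 against 1014, 2231 against 1528, 1818 against 1345 and 1261 against 1026 CPM. In EC-KO mouse 1 this rested on wells G21 and H21, without which columns 13 to 24 had 1022 CPM against 1014 CPM. Without the highest cell of each mouse the later columns were higher in 4 of 4 mice, at 1176 against 1014, 2026 against 1528, 1677 against 1345 and 1261 against 919 CPM. The order in which wells were filled is not given in the sources used here, and its part was not tested. The median cell differed less between these columns, at 990.6 against 910.2, 1454 against 1401, 1251 against 1192 and 923 against 912 CPM.

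Some sorted cells carried smooth muscle transcripts. In 10, 5, 2 and 2 cells of EC-KO mouse 1, EC-KO mouse 2, EC-WT mouse 1 and EC-WT mouse 2, 11 smooth muscle genes exceeded 2% of UMIs. Fos was read in 7 of these 19 cells (36.8%) and in 34 of the other 422 (8.06%). By mouse in the same order, it was read in 4 of 10, 2 of 5, 0 of 2 and 1 of 2 of the smooth muscle-high cells. In the other cells it was read in 10 of 147, 9 of 93, 10 of 112 and 5 of 70. A deeper cell is more likely to show a gene, and the depth of the 19 was not matched. Their Fos level against that of the other cells was 640 against 48.5 CPM in EC-KO mouse 1, 73.0 against 25.2 in EC-KO mouse 2, 0 against 57.4 in EC-WT mouse 1 and 60.5 against 20.02 in EC-WT mouse 2. It was thus higher in 3 of 4 mice, from 50, 7, 0 and 1 UMIs. Well G21 held 43 of the 50, and without it the level in EC-KO mouse 1 was 95.8 CPM. Without these 19 cells the summed level of the 10 genes was 1118, 1916, 1588 and 1154 CPM in the 4 mice. Cells are not replicates of a mouse.

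The labelled groups were compared on UMIs summed over the cells of each mouse. None of the 9 genes tested differed between EC-KO and EC-WT by edgeR's quasi-likelihood test at a Benjamini-Hochberg adjusted p of 0.05, where 10 of 8385 genes (0.119%) did. DESeq2 called none of them either, and 12 of the 8385. At an unadjusted p of 0.05, edgeR had 2 of the 9, Atf3 and Dusp1, and 553 of all genes (6.6%). The summed level was 1526 ± 477 CPM in EC-KO and 1358 ± 316 CPM in EC-WT (mean ± SD, n = 2 mice each), and the difference of 168 CPM gave an exact two-sided permutation p of 0.667, where 2 mice against 2 cannot go below 0.33. Without EC-KO mouse 2 the difference was -169 CPM, and without EC-WT mouse 2 it was -55.1 CPM.

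Atf3 was at 19.3 and 22.3 CPM in the mice labelled EC-KO and at 7.70 and 10.6 CPM in those labelled EC-WT, so that the groups did not overlap. Its log2 fold change was 1.21 ± 0.51 (SE) with an adjusted p of 0.724 by edgeR, from 21, 19, 5 and 6 UMIs. In EC-KO mouse 1, 12 of the 21 UMIs came from the 10 smooth muscle-high cells, at 154 CPM against 8.90 CPM in its other cells. Without the smooth muscle-high cells Atf3 was at 8.90 and 25.2 CPM in EC-KO and 7.76 and 10.9 CPM in EC-WT, so that the groups overlapped, and it no longer passed the filter on low counts. With all cells it passed only through the group where it was higher, so that its being tested depended on its difference. Both mice labelled EC-KO lay above both others for 15.7% of all genes tested, and both below for 20.7%, as for Jund. Jund was at 228 and 278 CPM against 316 and 286 CPM, a log2 fold change of -0.22 ± 0.19 (SE).

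Dusp1 was at 148 and 274 CPM in the mice labelled EC-KO and at 151 and 108 CPM in those labelled EC-WT. Its log2 fold change was 0.72 ± 0.29 (SE), with an adjusted p of 0.699 by edgeR. On CPM the groups overlapped by the margin between EC-KO mouse 1 and EC-WT mouse 1. With the TMM scaling of the fit these were at 152.1 and 151.2 CPM, and both mice labelled EC-KO lay above both others. That order rested on this narrow margin, and the share of all genes with such an order on the TMM scale is not given here. Non-overlap was read on CPM, so Dusp1 is not counted as separating the groups. For Fos, at 90.9, 30.5, 57.0 and 21.2 CPM, the log2 fold change was 0.68 ± 0.52 (SE). Without the 19 smooth muscle-high cells it was -0.037, and in the pair on the same flow cell it was -0.85, so its direction turned. For Jun, Junb and Egr1 it was 0.18, 0.45 and 0.44, and for Ier2 and Zfp36 -0.12 and -0.057, with SEs of 0.24 to 0.42. Fosb did not pass the filter.

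**Figure D5:**
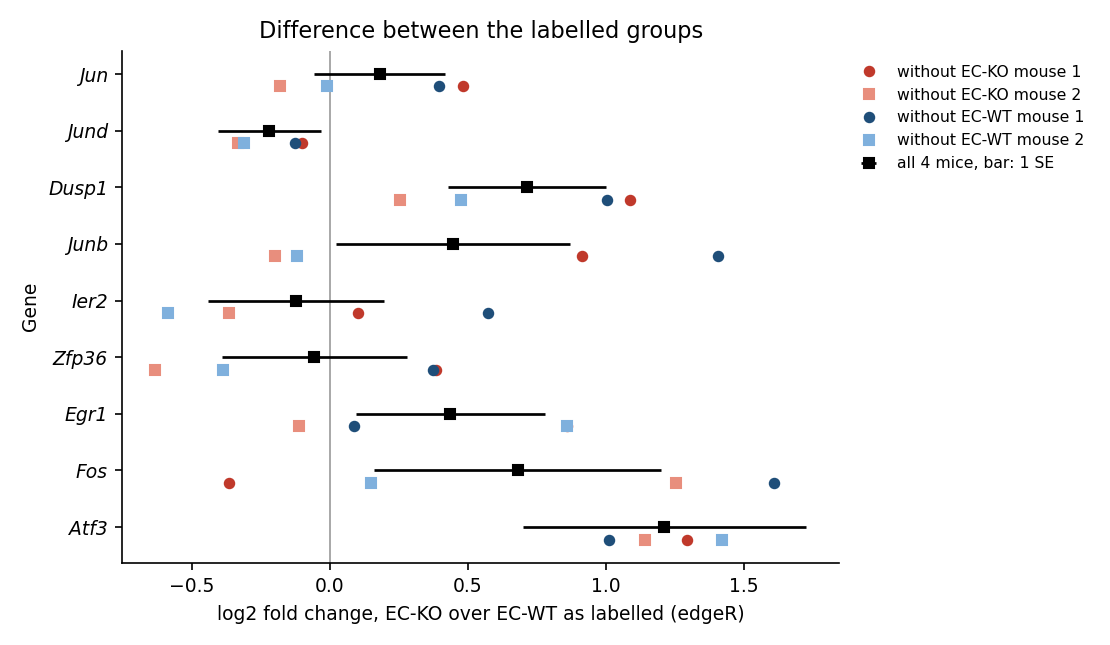
log2 fold change of EC-KO over EC-WT as labelled (edgeR) for the 9 genes tested, with 1 SE as a bar and with each mouse left out in turn as coloured points. Only Jund, Dusp1 and Atf3 keep their sign in all 4 reduced fits, and none of the 9 was called with all 4 mice. With all 4 mice Atf3 passes the count filter only through the group where it is higher.

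Leaving out EC-WT mouse 1 gave the only calls among the 10 genes, with Fos, Junb and Dusp1 higher in EC-KO at log2 fold changes of 1.61, 1.41 and 1.00. With 1 mouse left in EC-WT, that fit takes the lone mouse to vary like the other group, and 129 genes were called in all. Leaving out EC-WT mouse 2 in its place gave 0.15, -0.12 and 0.47 for the same 3 genes and no call among the 10. The calls therefore rested on which mouse stood for EC-WT. The smooth muscle genes moved with the labels, at a summed 4890 and 6791 CPM in EC-KO and 974 and 1313 CPM in EC-WT. They made up 7 of the 10 genes called (Acta2, Tagln, Myh11, Myl9, Mylk, Itga8 and Cnn1), with Acta2 at 2090 and 3275 against 334 and 662 CPM, and all 11 were read in every mouse. Dcn, which marks fibroblasts, was at 892, 163, 98.6 and 74.2 CPM. The part of these cells in the difference of the 10 genes was not tested beyond the fits without the 19 cells.

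Genes around the 10 in the same response gave no calls between the groups either. Of 36 further immediate early genes, 25 were tested, 16 had a positive and 9 a negative log2 fold change, where 49.4% of all genes had a positive one, and the median was 0.25 against -0.0053 over all genes. Of the 25, 3 had an unadjusted p under 0.05 by edgeR, next to 6.6% of all genes. The 4 highest by mean CPM, Klf2, Klf4, Rhob and Cyr61, had log2 fold changes of 0.55, 0.45, 0.57 and 0.63. Rhob, a small GTPase, was at 513 and 703 against 504 and 332 CPM. Of 16 heat shock genes, all tested, 11 were positive, with a median of 0.17. The 4 highest, the chaperones Hsp90ab1, Hspa8, Hspa5 and Hsp90aa1, had 0.052, -0.10, 0.11 and -0.0069. Of 9 feedback phosphatases and decay factors tested of 19, 6 were positive (median 0.083), and Zfp36l1, Dusp3, Zfp36l2 and Dusp8 had 0.094, -0.12, 0.083 and 0.074. Of 19 upstream kinases and factors tested of 22, 8 were positive (median -0.069). The MAP kinases Mapk3 and Mapk14 had -0.25 and -0.069, and Elk3 and Mkl2, a cofactor of serum response factor, had -0.36 and -0.48. Of 13 other AP-1 partners tested of 17, 7 were positive (median 0.14), with Nfe2l2, the antioxidant factor, at 0.37, Atf4, the integrated stress factor, at 0.37, Nfe2l1 at -0.19 and Atf2 at -0.30.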

How the data were processed

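Cells of 4 mouse aortas, 2 labelled EC-KO and 2 labelled EC-WT, were sequenced by SORT-seq on 1 plate of 384 wells per mouse. For each plate the authors deposited UMI counts, read counts with duplicates, and expected counts of transcripts, which they had made from the UMI counts by correcting for 4096 identifiers; none was normalized or restricted to cells. BWA 0.7.15, Seurat and the builds GRCm38 and mm10 are named in the submitters' processing notes, and the annotation is not given in the sources used here. UMI counts were the main values and expected counts, rounded, and read counts were alternatives. No deposited column of per-sample values was left out for want of a label.

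Wells with at least 1000 nuclear UMIs and at most 25% mitochondrial UMIs were kept as cells, with ERCC and mitochondrial rows left out of totals (CPM: counts per 1000000 nuclear UMIs). Doublets were not called, and cells over 3 times the median UMIs were left out as an alternative. UMIs summed per mouse (566088 to 1088901) were tested over all genes with edgeR 4.0.16 in R 4.3.3 (TMM, filterByExpr, quasi-likelihood, Benjamini-Hochberg over all genes tested), and non-overlap was read on CPM. The 2-against-2 sums were tested by exact permutation in scipy 1.17.1. Per-cell values used Python 3.11.15, numpy 2.4.6 and pandas 2.3.3, with a pseudocount of 100 CPM for correlations, and figures matplotlib 3.10.9. Intervals (exact Poisson, 95%) and the limit for a count of 0 (3 UMIs) cover counting error only. The sequencing was of amplified libraries in which UMIs mark molecules. Promoters came from RefSeq (GRCm38.p6).

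The 10 genes and all lists were chosen with earlier results of these data known. Genes named outside the 10 were the 4 highest by mean CPM of each list (for marker lists, only the checks of the sort are named) and any list member called, the 10 most like the summed level over cells (1 of them is not reported here), Epas1, Pecam1, Ptprc, Acta2 and Dcn. Wells were named after their values were seen. The edgeR test was tested on simulated data at the fitted dispersions of 8385 genes for EC-KO against EC-WT. It recovered 63 of 100 genes changed by 1 and 100 of 100 changed by 2 on the log2 scale, with 10 others called. The changed genes were drawn from those with a mean of at least 50 UMIs per mouse. Fos and Atf3 lay below that mean, so the recovery does not cover them. Alternatives were DESeq2 1.42.0, RLE size factors, other count filters (none, or at least 50 UMIs), a replicate block, each mouse left out, minimum counts of 500 or 2000 UMIs, no mitochondrial limit, cells thinned to 1000 UMIs, no smooth muscle-high cells (over 2%), and only the pair on the same flow cell. Leaving out the highest cell of each mouse or Rn45s, and a flow-cell term, were chosen after seeing the data.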

Additional observations from a re-analysis of the deposited data

Results flagged for a closer look

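Wells under 1000 nuclear UMIs were left out of the main comparisons, and those with at least 500 entered only the alternative with that minimum. The 10 genes were read in wells under 1000 UMIs on every plate. Their summed level there was 2722 CPM (exact Poisson 95% interval 2091 to 3482) in EC-KO mouse 1, from 63 UMIs, above the 1188 CPM (1124 to 1255) of that mouse's kept cells. In EC-KO mouse 2 it was 1853 CPM (1392 to 2418, 54 UMIs) beside 1863 CPM in kept cells. In EC-WT mouse 1 it was 1893 CPM (1473 to 2395, 69 UMIs) beside 1581 CPM, and in EC-WT mouse 2 it was 1264 CPM (925 to 1685, 46 UMIs) beside 1134 CPM. Outside EC-KO mouse 1 the level of the kept cells lay within the interval of the low wells. These wells had medians of 41.5 to 64 UMIs, and what they held was not tested. Groups of 2 mice were too small to look for a mouse far from its group.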

How the results depend on the processing

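With 2 mice a group, depth limited Fosb and Atf3 most, and shares over cells rested on few cells. No gene among the 10 was called in 19 of 20 alternatives; leaving out each mouse in turn gave 0 to 3 calls. Over all genes the 10 calls became 22 at a minimum of 2000 UMIs, 17 with no mitochondrial limit, 115 with no count filter, 26 with a flow-cell term and 16 without the highest cell of each mouse. They became 0 with read counts, 0 without smooth muscle-high cells, 0 without cells over 3 times the median UMIs, and 4 to 129 with 1 mouse left out (4 without EC-KO mouse 2, 21 without EC-KO mouse 1, 117 and 129 without EC-WT mouse 2 and 1). For the last 2 no-call settings edgeR had 446 and 461 genes at an unadjusted p of 0.05, and for read counts 826. With the replicate number as a block there were 8 calls in all and 0 among the 10 genes, with an exact p of 1 for the summed level. Same-numbered mice were not taken as pairs in the main fit. The correlation of same-numbered deviations over genes was -0.049. It cannot decide on a pairing, because EC-KO mouse 2 and EC-WT mouse 1 shared a flow cell. The summed difference of 168 CPM was -109 CPM in cells thinned to 1000 UMIs and -169 to 506 CPM with 1 mouse left out. It kept its sign in the other alternatives. The share of variance between mice, 1.75%, was 0.220% at a minimum of 500 UMIs, 3.36% at 2000, 1.91% with no mitochondrial limit, 2.68% without smooth muscle-high cells, 1.79% with transcript counts, 1.57% in thinned cells and 4.46% without the highest cell of each mouse. The SD over cells, 2022 CPM, was 2948 CPM at a minimum of 500 UMIs, 1621 CPM at 2000, 1344 CPM without the highest cell of each mouse and 1068 CPM without the 10 highest cells. The median pair correlation, 0.15, was 0.11 at a minimum of 2000 UMIs, 0.030 in thinned cells and 0.071 without the highest cell of each mouse. The sign of a log2 fold change turned for Fos without smooth muscle-high cells (-0.037) and in the flow-cell pair (-0.85), and for Zfp36 at a minimum of 500 UMIs (0.014), with read counts (0.53) and in the flow-cell pair (0.060). With 1 mouse left out it ran from -0.37 to 1.61 for Fos, -0.18 to 0.48 for Jun, -0.20 to 1.41 for Junb, -0.11 to 0.86 for Egr1, -0.59 to 0.57 for Ier2 and -0.63 to 0.38 for Zfp36. Over all alternatives in which they passed the filter, Jund, Dusp1 and Atf3 kept their sign. For Atf3 this is no check of its direction, as with all cells it passed only through the group where it was higher. It did not pass in thinned cells, without smooth muscle-high cells or without the highest cell of each mouse. Fosb was tested only with read counts and with no filter, and the flow-cell pair has no test. The cause of these shifts was not tested.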
